A study of Mus musculus with 12 samples.

Results

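Narrow FLAG-Zscan4 regions that lie close to one another were examined in the region list of mouse ES cells overexpressing Zscan4c. A region was taken as narrow when its width was below 800 bp, and as clustered when the midpoint of another listed region, of any width, lay within 10 kb of its own midpoint on the same autosome. By this rule 631 of the 4973 listed regions were clustered narrow regions. They made up 14.5% of the 4346 narrow regions on the 19 autosomes (95% Wilson interval 13.5 to 15.6%). Chaining midpoints with steps of 10 kb or less placed them in 298 clusters, which also held 58 regions of 800 bp or more. A stretch of chromosome 8 between 19 and 21 Mb held 66 of the 631 regions in 22 clusters and is shown apart throughout. These regions were chosen by position and width, and the score was made in the same peak calling, so positions, widths and scores are given as a description and were not tested.

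Zscan4c encodes a DNA-binding protein with zinc fingers and a SCAN domain. Its gene is switched on in the 2-cell embryo and, for short periods, in a few ES cells, and the protein is best known for helping to keep telomeres long. Genes of zinc finger, defensin and olfactory receptor families lie in arrays that arose by repeated duplication, and the copies in such arrays can be so alike that a short read fits several of them. The cells were J1, a mouse ES cell line (strain 12910la in the labels), into which the FLAG-tagged Zscan4c coding sequence had been brought on a pCMV plasmid (1000 ng), with selection from 24 h on in 500 ug/ml G418 for 10 days. Monoclonal cells were then taken on, and the number of clones is not stated. The list comes from 1 anti-FLAG immunoprecipitation of these overexpressing cells, whose labels also name an input sample of the same genotype. The 10 other labelled samples, histone mark immunoprecipitations and inputs from wild-type and overexpressing cells, were not analysed here. The list gives no read counts and no expression values, so depth is unknown and the labelled cell type was not checked against markers. No sample had a replicate. Intervals cover counting error only and treat regions as independent, which regions of 1 cluster are not.

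Few of the clustered narrow regions overlapped the promoter windows available. Of the 617 on chromosomes with RefSeq promoter windows (250 bases before to 50 after an annotated start site, assembly GRCm38.p6), 10 overlapped such a window (1.62%, 95% Wilson interval 0.883 to 2.96%). Among narrow regions with no neighbour, 28 of 3610 did so (0.776%, interval 0.537 to 1.12%). Some genes on these chromosomes have no window, so both shares can be too low for gene starts in general. The 6 windows below were picked after their values were seen. Those of Gm15319, Gm21119, Rex2 and Sprr2a2 have a near copy at another gene. That of Defb11 belongs to a defensin gene, and that of Gm52873 is a tandem repeat. Capitals mark the bases covered by the listed region, and each sequence reads 5' to 3' along the gene. Gm15319 (chr8:20363153-20363452, minus strand, region score 49) and Gm21119 (chr8:20614677-20614976, plus strand, region score 47) are predicted coding genes of the chromosome 8 stretch, Rex2 (chr4:147021600-147021899, plus strand, score 94) is a zinc finger gene, Sprr2a2 (chr3:92250397-92250696, plus strand, score 52) encodes a small proline-rich protein of the epidermis, Defb11 (chr8:21906383-21906682, minus strand, score 35) a beta-defensin, and Gm52873 (chr6:116238554-116238853, plus strand, score 23) is a long non-coding RNA gene.
Gm15319: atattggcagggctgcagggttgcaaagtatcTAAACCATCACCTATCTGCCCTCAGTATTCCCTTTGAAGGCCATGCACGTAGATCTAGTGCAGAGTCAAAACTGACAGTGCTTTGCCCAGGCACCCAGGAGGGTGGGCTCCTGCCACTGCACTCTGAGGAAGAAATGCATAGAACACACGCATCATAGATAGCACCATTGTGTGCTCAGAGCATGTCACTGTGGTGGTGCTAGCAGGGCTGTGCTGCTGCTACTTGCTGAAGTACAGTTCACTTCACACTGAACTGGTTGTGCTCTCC
Gm21119: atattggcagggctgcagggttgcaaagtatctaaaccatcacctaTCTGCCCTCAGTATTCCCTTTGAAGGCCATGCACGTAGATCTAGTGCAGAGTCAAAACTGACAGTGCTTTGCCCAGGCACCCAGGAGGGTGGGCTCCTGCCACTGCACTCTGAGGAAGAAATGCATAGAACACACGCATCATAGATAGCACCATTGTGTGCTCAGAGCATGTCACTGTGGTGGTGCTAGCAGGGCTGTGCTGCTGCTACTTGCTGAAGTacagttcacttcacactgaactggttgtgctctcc
Rex2: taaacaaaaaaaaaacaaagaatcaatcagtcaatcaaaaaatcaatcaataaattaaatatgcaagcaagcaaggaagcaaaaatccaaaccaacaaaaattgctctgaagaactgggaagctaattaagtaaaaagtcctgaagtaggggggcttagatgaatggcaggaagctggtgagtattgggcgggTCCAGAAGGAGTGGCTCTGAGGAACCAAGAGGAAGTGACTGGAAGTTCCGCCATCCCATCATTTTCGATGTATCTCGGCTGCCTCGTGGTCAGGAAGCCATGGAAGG
Sprr2a2: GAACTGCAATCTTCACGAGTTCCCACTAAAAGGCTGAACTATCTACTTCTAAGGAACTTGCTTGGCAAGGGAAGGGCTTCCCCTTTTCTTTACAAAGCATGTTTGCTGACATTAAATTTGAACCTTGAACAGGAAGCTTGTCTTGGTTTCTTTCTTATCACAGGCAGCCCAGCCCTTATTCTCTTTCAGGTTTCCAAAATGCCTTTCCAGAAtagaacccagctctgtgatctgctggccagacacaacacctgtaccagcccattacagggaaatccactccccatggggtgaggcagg
Defb11: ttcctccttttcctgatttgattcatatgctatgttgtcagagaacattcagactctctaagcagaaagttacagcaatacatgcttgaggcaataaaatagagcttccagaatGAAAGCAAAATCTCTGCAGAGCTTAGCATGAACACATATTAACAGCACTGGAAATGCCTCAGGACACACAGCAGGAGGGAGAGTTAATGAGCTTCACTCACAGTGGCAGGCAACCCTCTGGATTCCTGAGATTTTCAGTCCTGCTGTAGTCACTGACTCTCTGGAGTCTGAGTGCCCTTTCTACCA
Gm52873: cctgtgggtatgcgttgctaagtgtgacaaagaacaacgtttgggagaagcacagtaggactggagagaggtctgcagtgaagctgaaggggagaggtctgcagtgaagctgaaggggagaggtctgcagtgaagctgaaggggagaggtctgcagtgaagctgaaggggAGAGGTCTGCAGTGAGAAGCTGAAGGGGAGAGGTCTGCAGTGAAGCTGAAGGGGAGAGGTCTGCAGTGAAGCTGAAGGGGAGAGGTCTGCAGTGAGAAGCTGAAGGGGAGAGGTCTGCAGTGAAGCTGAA

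The windows of Gm15319 and Gm21119 were identical over all 300 bases, and each was covered by a clustered narrow region. Another gene of the same stretch, 4930467E23Rik, had the same 300 bases without a mismatch. Its window was not itself covered, and the nearest region lay 266 bp from it with a score of 64. The window of Rex2 differed by 4 bases of 300 from that of Zfp600 and by 4 of 294 from that of Zfp979, both zinc finger genes of the same chromosome. Neither copy had a region on it: the nearest was 6.17 kb away at Zfp600 (score 29) and 3.15 kb away at Zfp979 (score 29). The window of Sprr2a2 was identical to that of Sprr2a1 over 300 bases and to that of Sprr2a3 over the 272 compared, and again the copies were not covered, with the nearest regions at 24.2 kb (score 107) and 9.22 kb (score 35). How reads that fit several copies were placed is not stated, so a listed copy cannot be told apart from an unlisted one of the same sequence. The window of Gm52873 was a tandem repeat with a period of 26 bp. Its bases matched those 26 positions on in 68.2% of cases, a match reached at any period from 2 to 60 bp by 0.191% of 1570 windows taken evenly from the table, and the 15 bases AGAGGTCTGCAGTGA occurred in it 9 times. Short motifs were searched on both strands of the windows. The motif TGCACAC reported for Zscan4 was found in 0 of the 10 windows with a clustered narrow region, in 2 of 32 with an isolated one and in 4.40% of all 31396 autosomal windows. The telomere hexamer TTAGGG, 2 in a row, was found in 0 of 10 and in 4 of all windows, and the dinucleotide CA, 6 in a row, in 0 of 10 and in 1.03% of all. These counts say only that the letters were not in these windows.

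Around the 3 identical start sites some of the regions stood at like distances, as the plot of distances from the start site shows. For 4930467E23Rik the start site used lies inside the annotated gene (chr8:19704311-19753603). Its regions given here before that site are therefore in the gene body. Before the start site, Gm15319 had a region at -5.89 kb (score 85), Gm21119 at -6.03 kb (93) and 4930467E23Rik at -6.01 kb (73). All 3 of them were clustered and narrow. A region just before the start lay at -0.606 kb in Gm15319 (90) and at -0.631 kb in 4930467E23Rik (64), and Gm21119 had none there. Farther before the start site, Gm15319 and 4930467E23Rik had regions at -15.7 kb (55) and -15.5 kb (29), and Gm15319 and Gm21119 at -17.6 kb (55) and -17.9 kb (317). Downstream, Gm15319 had a region at 22.9 kb (122), Gm21119 at 23.1 kb (47) and 4930467E23Rik an isolated narrow one at 22.4 kb (176). The last was not within 300 bp of the distance of either other. Between -20 and 36 kb, 4 of the 7 clustered narrow regions of Gm15319 had a region of Gm21119 within 300 bp of the same distance, and 3 of 7 had one of 4930467E23Rik. Of the 8 of Gm21119, 1 had a region of 4930467E23Rik at a matching distance. These limits were chosen after the distances were seen. Scores at matching places were not alike: they were close at -6 kb and ran from 55 to 317 at about -18 kb.

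**Figure D1:**
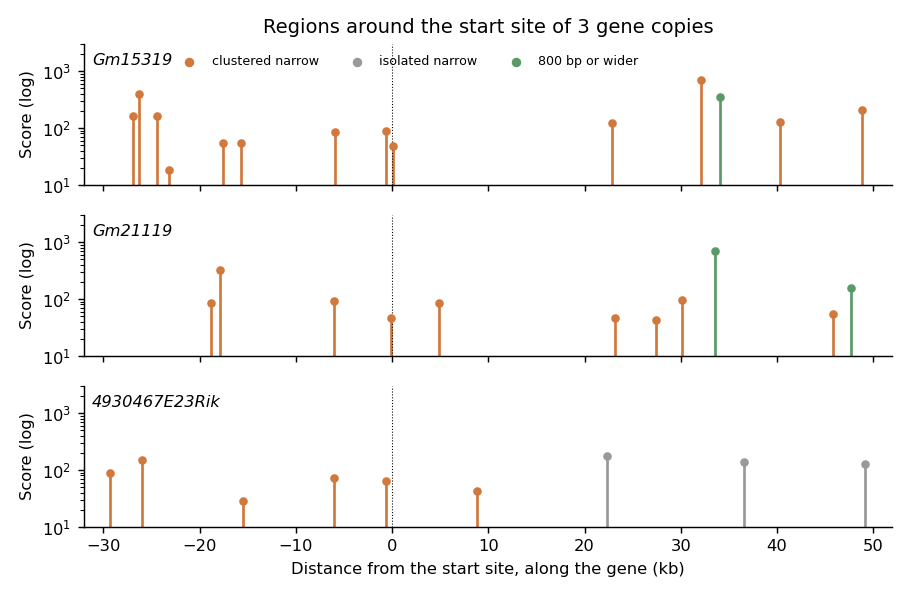
Each panel shows one gene copy of the chromosome 8 stretch, with the distance of every listed region from the start site along the gene in kb on the horizontal axis and the authors' score on a log axis; stems and dots are single regions, coloured by kind, and the dotted line is the start site. A region stands near -6 kb in all 3 panels, with scores of 85, 93 and 73. Downstream, regions stand at 22.9, 23.1 and 22.4 kb, the last of them not within 300 bp of the others. In 4930467E23Rik the start site used lies inside the annotated gene.

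The chromosome 8 stretch held the cluster with most regions and the 3 longest ones. Its 66 clustered narrow regions were 66 of the 76 narrow regions listed there (86.8%, 95% Wilson interval 77.4 to 92.7%), or 33 per Mb. The cluster with most members ran over 32.4 kb (chr8:20362848-20395227) with 10 narrow regions and no wide one. It began at the start of Gm15319, passed the pseudogene Gm7807 and ended inside 2610005L07Rik, a transcribed pseudogene. Its scores in order along the chromosome were 49, 90, 85, 55, 55, 18, 160, 397, 160 and 41. The higher scores thus lay together in 2610005L07Rik, which held 6 clustered narrow regions in all, the most of any gene. A cluster at the pseudogene Gm21811 (chr8:20147515-20155114) packed 5 narrow regions into 7.60 kb with scores of 173, 102, 42, 431 and 106. On the far side of Gm15319, a cluster of 26.5 kb (chr8:20314060-20340598) had narrow regions with scores of 206, 125, 707 and 122 and a wide one of 356. Its score of 707 was the highest of the 66. The pseudogene Gm21092 (chr8:20575602-20583854) held part of a cluster with scores of 111, 218, 135 and 86, and 4930467E23Rik (chr8:19713798-19738606) one with 29, 73, 64 and 43. Of the 22 clusters, 12 touched an annotated gene. Pseudogenes were the gene at 13 of the 66 regions (19.7%, 11.9 to 30.8%), against 14 of 565 clustered narrow regions elsewhere (2.48%, 1.48 to 4.12%). Of the 13, 6 lie in 2610005L07Rik alone, and regions of 1 gene are not independent, so the interval is too narrow. The part of the stretch annotated as pseudogene was not measured. Of 83 autosomal Defa and Defb genes, 1 had a clustered narrow region in the body or within 10 kb (1.20%, 95% Wilson interval 0.213 to 6.51%), against 0.811% of all autosomal genes. It was Defb11, which lies at 21.9 Mb and so outside the stretch.

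**Figure D2:**
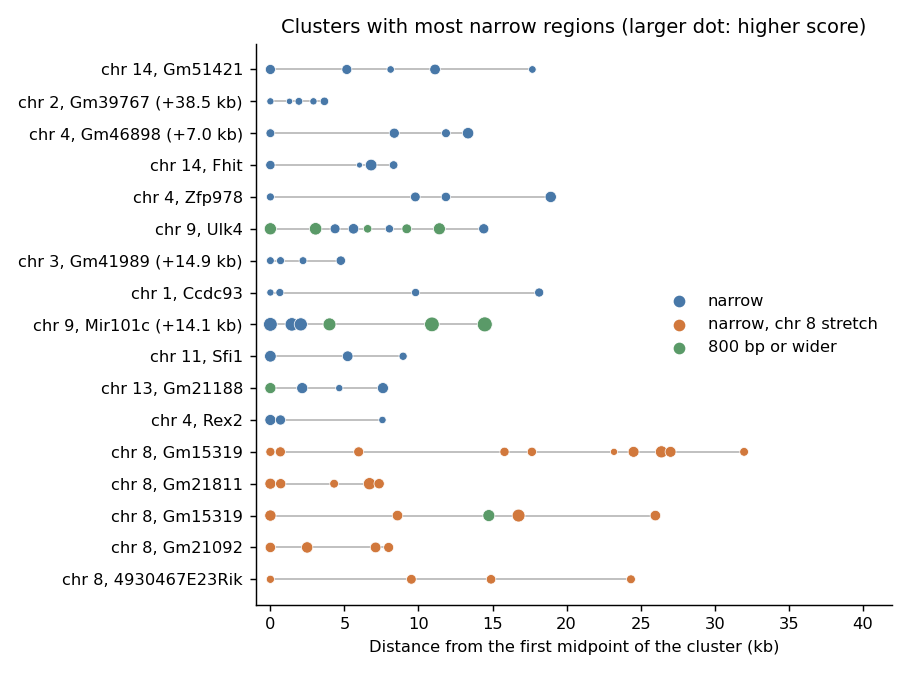
Each row is a cluster, named by the gene it touches or, with the distance in kb, the nearest gene; the horizontal axis is the distance from its first midpoint in kb, and dots are regions whose size grows with the authors' score. The upper 12 rows are the clusters with most narrow regions outside the chromosome 8 stretch and the lower 5 those with 4 or more inside it, the longest of which has 10 narrow regions over 32.4 kb.

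Elsewhere clustering mostly meant a pair. The other 565 clustered narrow regions fell into 276 clusters, of which 232 had 2 regions and held 76.5% of the 565 (95% Wilson interval 72.8 to 79.8%). Inside the stretch, clusters of 2 held 22.7% of the 66 (14.3 to 34.2%). Regions of 1 cluster share its size, so these intervals are too narrow to compare the 2 shares. Narrow regions stood at 38 per Mb in the stretch, against 1.36 to 2.36 on the 18 other autosomes. The part of this density in the cluster sizes was not tested. Clusters of 4 or more regions numbered 17, of which 7 lay in the stretch. Among the 631 regions, 593 had a narrow region within 10 kb and 38 had only wide ones.

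Inside clusters the steps between neighbouring midpoints were skewed to short distances. The 391 steps ran from 0.47 to 9.91 kb with a median of 3.13 kb (interquartile range 1.43 to 6.23 kb). Of these, 143 (36.6%, 95% Wilson interval 32.0 to 41.5%) were below 2 kb and 140 (35.8%, 31.2 to 40.7%) above 5 kb. The most filled bin was 1 to 2 kb, with 89 steps, against 25 between 9 and 10 kb. No regions overlapped, and the shortest gap between the edges of neighbours was 221 bp. The labels give a library fragment length of about 250 bp. The settings of the peak calling are not stated, and their part in these limits and in the short steps was not tested. Gaps below 1000 bp numbered 102. The median step was 2.96 kb in the chromosome 8 stretch and 3.13 kb elsewhere, and the shares below 2 kb were 36.5% and 36.6%. At the edges of the rule, the widest member had 797 bp (score 83, inside Ulk4) and the narrowest clustered region left out had 808 bp (score 141). The farthest accepted neighbour was at 9.91 kb (score 10) and the nearest refused one at 10.1 kb (score 20).

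**Figure D3:**
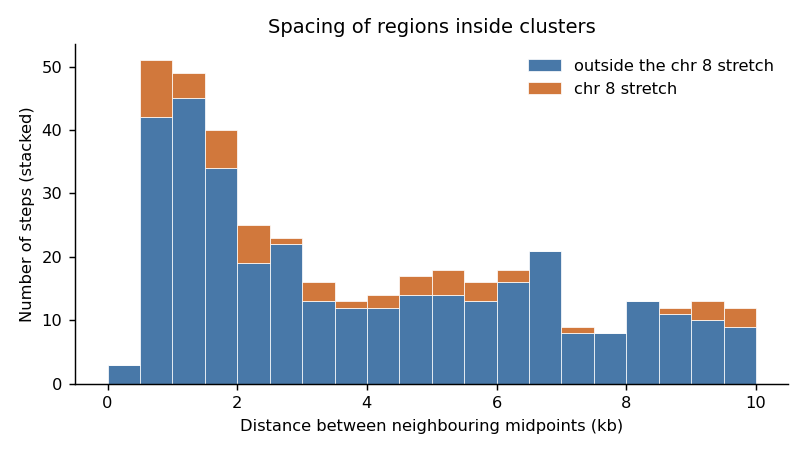
Histogram of the 391 steps between neighbouring midpoints inside clusters, in bins of 0.5 kb, with steps in the chromosome 8 stretch stacked on those elsewhere. Counts are highest between 0.5 and 2 kb and fall to a lower level beyond 3 kb.

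Scores were higher in the chromosome 8 stretch than in the other clustered narrow regions, whose median was close to that of isolated ones. The authors' score has no stated scale and ran in the stretch from 13 to 707 with a median of 89 (interquartile range 50.3 to 158). In the 565 regions elsewhere it ran from 10 to 1484 with a median of 32 (23 to 51). In the 3715 narrow autosomal regions without a neighbour the median was 29 (19 to 46), and in the 71 wide clustered regions it was 107. Scores of 100 or more were found in 28 of 66 regions in the stretch (42.4%, 95% Wilson interval 31.2 to 54.4%), 45 of 565 elsewhere (7.96%, 6.01 to 10.5%) and 204 of the isolated ones (5.49%, 4.80 to 6.27%). Outside the stretch, regions with a neighbour within 2 kb had a median score of 33, those at 2 to 5 kb 29 and those at 5 to 10 kb 31. Clusters of 3 or more regions had a median of 37 there and pairs one of 29. In the 200 pairs of narrow regions outside the stretch, the lower score of a pair had a median of 23 and the higher one of 43, an order fixed by sorting each pair, and 1 pair had both scores at 100 or more. The best member stayed below 33, the median of the whole list, in 89 of the 276 clusters elsewhere and in 1 of the 22 in the stretch. Widths were alike, with medians of 282 bp in the stretch, 304 bp elsewhere and 291 bp in isolated regions.

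**Figure D4:**
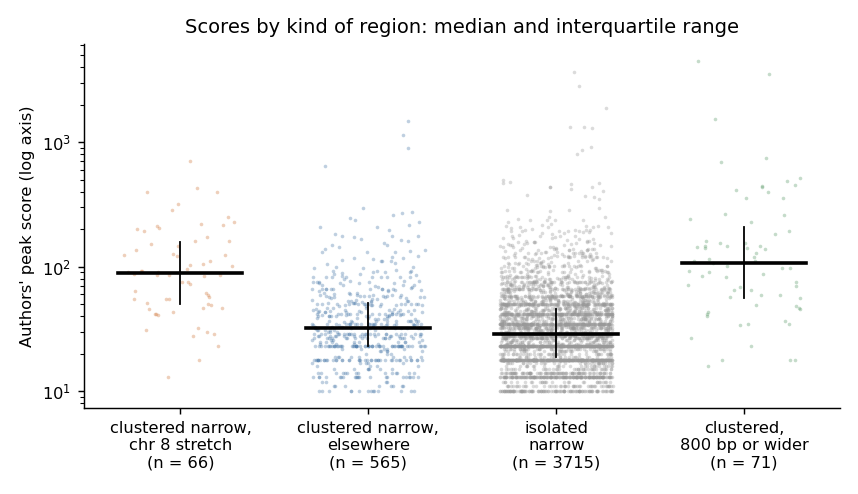
Authors' score on a log axis for 66 clustered narrow regions in the chromosome 8 stretch, 565 elsewhere, 3715 isolated narrow regions and 71 clustered regions of 800 bp or more; dots are regions, horizontal bars medians and vertical bars interquartile ranges. The medians are 89, 32, 29 and 107.

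Clustering was most frequent on chromosome 8 even without the stretch. There 145 of 424 narrow regions were clustered (34.2%, 95% Wilson interval 29.8 to 38.8%), and outside the stretch 79 of 348 (22.7%, 18.6 to 27.4%) in 39 clusters of at most 3 regions. Neighbours are clustered together and not independently, so these intervals are too narrow to compare chromosomes. The other 18 autosomes lay between 6.36% on chromosome 6 and 17.3% on chromosome 14, with a median of 12.4%. Narrow regions were also denser on chromosome 8 outside the stretch, at 2.80 per Mb against 1.36 to 2.36 on the other autosomes, and the part of this density in the clustered share was not tested. The 79 regions had low scores, from 10 to 88 with a median of 28. Fto, which encodes an RNA demethylase, held 5 of them in 2 clusters with scores of 61, 23 and 34 and of 23 and 57. Stox2, which encodes a storkhead-box protein, held 3 (88, 18 and 23), as did Klhl2, which encodes an adaptor of a cullin ubiquitin ligase (29, 14 and 61). Copy number and read mapping were not measured, so a share or density per chromosome is not shown to reflect binding.

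**Figure D5:**
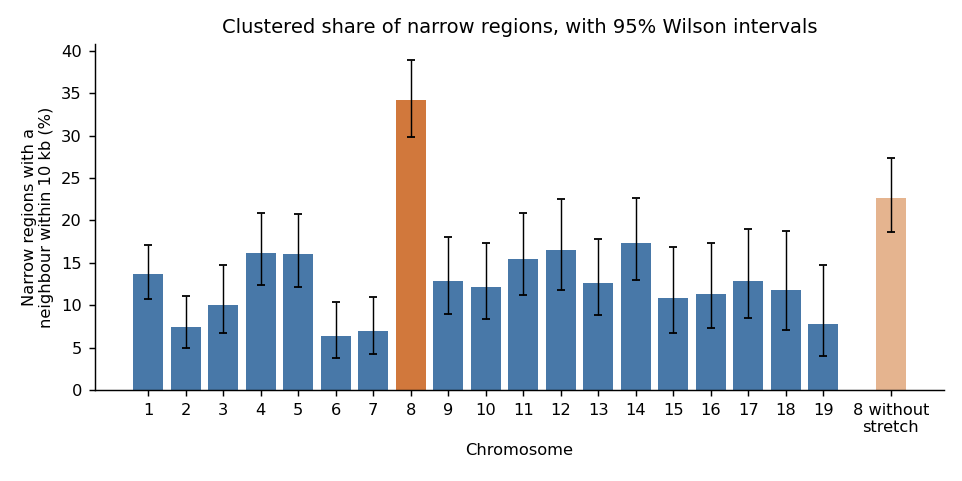
Bars give, for each autosome and for chromosome 8 without the stretch, the percentage of narrow regions with a neighbour within 10 kb. Whiskers are 95% Wilson intervals, which are too narrow because neighbours are clustered together. Chromosome 8 stands at 34.2%, and at 22.7% without the stretch, and the other autosomes between 6.36% and 17.3%.

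Among zinc finger genes, clusters recurred on chromosome 4. Between 145 and 148 Mb lay 25 clustered narrow regions in 10 clusters, with scores from 11 to 248 and a median of 75. Of 406 autosomal Zfp genes, 10 had a clustered narrow region in the body or within 10 kb (2.46%), against 379 of all 46714 autosomal genes (0.811%), without matching on gene length. Of these 10, 8 lie on chromosome 4. Isolated narrow regions were near 69 of the 406 (17.0%) and near 8.12% of all genes. Zfp993 held 4 clustered narrow regions in 2 clusters, with scores of 83 and 216 (chr4:146920898-146925654) and of 248 and 74 (chr4:146971807-146975515). Rex2, which overlaps it, held 4 as well: the 74 of that pair and a cluster of 175, 94 and 20 (chr4:147021162-147028985) whose middle region covers part of the window printed above. A cluster at one edge of Zfp978 (chr4:147113764-147133053) had scores of 27, 75, 59 and 209, the last inside Zfp991 too. Zfp982 held a pair of 31 and 238 (chr4:147443938-147451148). Between Zfp978 and Zfp982, a cluster 7.04 kb from the nearest gene, Gm46898, had 42, 93, 45 and 228 (chr4:147420500-147434278). In most of these clusters, which were named for their size or their highest score, 1 region stood well above the others. Zfp980 had clustered regions up to a score of 174, and Zfp704 on chromosome 3 and Zfp960 on chromosome 17 up to 83 and 65.

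The start of chromosome 14 was another dense place. From 3 to 6 Mb it held 23 clustered narrow regions in 9 clusters, with scores from 21 to 294 and a median of 55. The largest, inside the long non-coding RNA gene Gm51421 (chr14:5968064-5986020), had scores of 89, 87, 21, 131 and 22. The overlapping predicted coding genes Gm26650 and Gm3264 shared a cluster of 111, 32 and 77 (chr14:4861346-4875905). A pair of 65 and 294 (chr14:3122710-3124822) lay 5.83 kb from Gm10340. Chromosome 5 between 15 and 16 Mb had 8 clustered narrow regions (median score 56.5), and so did chromosome 8 between 78 and 79 Mb (median 26). Outside the stretches of chromosomes 4, 8 and 14, the remaining 517 clustered narrow regions had a median score of 29, and the 3657 isolated ones there one of 29.

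Of the 12 clusters outside the chromosome 8 stretch with the highest-scoring narrow region, those not on chromosome 4 or at the start of chromosome 14 were as follows. Near the centromeric end of chromosome 9 (chr9:3009288-3024581) 3 narrow regions had scores of 1484, 1148 and 893 beside wide ones of up to 4515, and the nearest gene was Mir101c at 14.1 kb. In or next to this cluster, 4 region numbers are missing from the list. A pair inside Washc2, which encodes a subunit of the WASH complex of endosomes, had scores of 23 and 645 (chr6:116238724-116242358), and the weaker region covers part of the Gm52873 repeat. Sfi1, a centrosome protein gene, held 273, 135 and 30 (chr11:3137219-3146520). Fhit, which spans a common fragile site, held 58, 11, 272 and 38 within 8.86 kb of its 1612 kb (chr14:11040552-11049408). A pair of 18 and 260 on chromosome 2 (chr2:129420941-129430142) lay 27.7 kb from F830045P16Rik. Snhg14, the host transcript of small nucleolar RNAs, held 207 and 39 (chr7:59760850-59768860). In these clusters, too, which were picked by their highest score, the scores of neighbours often lay far apart. Over all 200 pairs of narrow regions outside the chromosome 8 stretch, the higher score was a median of 1.68 times the lower. It was at least 2 times the lower in 82 pairs (41%).

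Clusters with many regions did not always have high scores. Ulk4, which encodes a relative of the Unc-51 kinases, held the cluster with most regions outside the stretch, 9 over 15.6 kb (chr9:121223409-121238961), of which 4 were narrow with scores of 83, 120, 32 and 97 and the wide ones reached 519. On chromosome 2, 38.5 kb from Gm39767, 5 narrow regions stood within 4.06 kb (chr2:22002654-22006711) with scores of only 18, 13, 24, 19 and 35. On chromosome 3, 14.9 kb from Gm41989, 4 had 25, 27, 25 and 60 (chr3:6301967-6307008). A cluster reaching into Gm21188 had 184, 19 and 177 beside a wide region of 182 (chr13:120027905-120036372). Ccdc93, an endosomal trafficking gene, held 4 with 18, 28, 31 and 50 (chr1:121483850-121502362).

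Outside the chromosome 8 stretch, shares in genes were close for clustered and isolated narrow regions. There, 302 of 565 midpoints were inside a gene (53.5%, 95% Wilson interval 49.3 to 57.5%), against 54.3% (52.7 to 55.9%) of the isolated ones. The share was 42.4% (31.2 to 54.4%) in the stretch. Protein-coding genes held 41.6% (37.6 to 45.7%) of the 565 and 44.3% (42.7 to 45.9%) of the isolated ones. In the stretch they held 19.7% (11.9 to 30.8%) of the 66. That share rests on 13 regions in 4 genes, so its interval is too narrow. The part of the stretch taken up by such genes was not measured. The median distance to the nearest start site with a promoter window was 24.8 kb for the 551 outside the stretch with a distance. It was 26.0 kb in the stretch and 25.9 kb for isolated ones. Some genes lack a window, so single distances can be too long. Outside the stretch the intervals of clustered and isolated regions overlap, which does not show that the shares are equal. Of the 276 clusters outside the stretch, 136 lay whole inside a single gene (49.3%, 43.4 to 55.1%), 112 of them inside a protein-coding gene, 105 touched no gene, and 35 reached across a gene's edge. Regions in protein-coding genes lay in genes of median length 83.7 kb outside the stretch, against 101 kb for isolated ones.

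In all, 126 protein-coding genes held a clustered narrow region in the body. Of these, 99 held 2 or more, and the rule itself asks for a neighbour within 10 kb. The 1644 isolated narrow regions in protein-coding genes lay in 1436 genes or sets of overlapping genes. Among the 126 genes, 19 held 3 or more. Besides the genes above, these were Cd244a, a receptor of natural killer cells (scores 37, 77 and 53 within 5.95 kb), Thada (41, 13 and 74), Nhsl1 (42, 66 and 10), Acap2, an Arf GTPase-activating protein gene (28, 50 and 42 within 2.57 kb), Gm7982 (29, 11 and 36), and Flg, which encodes the epidermal protein filaggrin (23, 24 and 11). Scores in these 6 genes stayed below 100.

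Of the 19 gene lists, 9 had a gene with a clustered narrow region in the body or within 10 kb, beside 0.811% of all autosomal genes. Predicted genes of the Gm series, the largest list, had 173 of 20099 (0.861%), near the value for all genes. Olfactory receptors, which detect odorants and form large arrays, had 2 of 1419 (0.141%), Olfr247 (best score 58) and Olfr819 (37), which share a cluster. Vomeronasal receptors, which detect pheromones, had 6 of 616 (0.974%), all of them Vmn2r pseudogenes. The highest of these were Vmn2r-ps19 (238), Vmn2r-ps18 (209), Vmn2r-ps17 (98), Vmn2r-ps98 (80) and Vmn2r-ps16 (75), and all but Vmn2r-ps98 lie among the zinc finger genes of chromosome 4. In the Sp100 family of nuclear body proteins, Sp140 held a pair of 18 and 41, and Sp110 had the weaker of these within 10 kb. Obox6, an oocyte homeobox gene, had 1 (29), as 1 of 53 Obox genes. Cyp4f18, a cytochrome P450 gene, had a pair of 18 and 10, as 1 of 134. Among 1093 microRNA genes 3 had one: Mir1843a (92), Mir7008 (23) and Mir684-2 (21). No clustered narrow region was listed near the 6 Zscan4 genes, the 2 Dux family genes found, 46 Pramel and Pramef genes, 13 Tdpoz and Spop genes, 68 Serpin genes, 20 carboxylesterases, 38 kallikreins, 68 protocadherins or 93 Snord genes, and the histone pattern matched no symbol of the gene table. Isolated narrow regions were listed near some of these genes: 13 of the 93 Snord genes (8.12% of all genes had one), 1 of the 6 Zscan4 genes, 1 of the 2 Dux genes and 2 of the 46 Pramel and Pramef genes. The Snord list was made by symbol and leaves out small nucleolar RNA genes with Gm symbols. Some of those, such as Gm25471, Gm22776 and Gm23446 within Snhg14, had clustered narrow regions within 10 kb (best score 207).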

How the data were processed

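The data were 1 list of FLAG-Zscan4 regions. The start, end and score of each region were deposited by the authors, the score as a whole number whose scale is not stated. Per the submitters' processing notes, the tools were deepTools, MACS2, Bowtie2 and cutadapt on build mm10, with no versions or thresholds. Region numbers run to 5005, and 32 of them are missing from the list. Such a number lies in or next to 3 clusters. Among them are the chromosome 9 cluster with the highest scores, with 4 missing numbers, and that at Gm21188, with 1. Depth is unknown.

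Clusters were built in Python 3.11.15 with pandas 2.3.3 over autosomal regions of any width and checked on simulated data. Genes and promoter windows were taken from RefSeq tables of assembly GRCm38.p6, the build of mm10. Of 47042 autosomal genes, 46714 starting beyond 3 Mb were used. Chromosome 18 has no windows in the table used. Some genes of other autosomes lack one too, such as 4930444P10Rik, Nuggc and Deptor, and how many was not counted. A midpoint was given the first class of protein-coding, long non-coding RNA, pseudogene or other. Windows were called copies when they shared 140 or more of the 281 runs of 20 bases, and were compared without gaps at shifts of up to 60 bases. No genome sequence was used, so the planned search of whole regions for motifs was replaced by promoter windows.

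Named were the 12 clusters with most members and the 12 with the highest member outside the chromosome 8 stretch, clusters of 4 or more members in it, protein-coding genes with 3 or more members, and up to 5 genes per list. For predicted genes the list is given by its count. Other genes named, such as those with printed windows and their copies, were chosen after their values were seen. Members, lists and rules were chosen with earlier results of these data known. No test was run, because there is 1 library and the rule used its own positions and widths. Alternatives were neighbours within 5 or 20 kb, widths below 500 or 1000 bp, the higher-scoring 2510 regions, narrow neighbours only, the chromosome 8 stretch left out, overlap in place of midpoints and protein-coding genes only.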

Additional observations from a re-analysis of the deposited data

How the results depend on the processing

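The counts and shares were recomputed under 9 settings. The number of clustered narrow regions was 219 with the higher-scoring 2510 regions and 409 with neighbours within 5 kb, against 631, and the number of clusters was 100 with those higher-scoring regions, against 298. The median score was 64 with the higher-scoring regions, which have a score of at least 33 by selection, against 34. The median step was 1.805 kb with neighbours within 5 kb and 6.04 kb within 20 kb, against 3.13 kb, as the limit itself bounds the steps. The share in clusters of 2 was 70.8%, and it was 76.5% without the chromosome 8 stretch, 64.4% with the higher-scoring regions, 65.5% within 20 kb and 79.0% within 5 kb. The share inside genes was 39.3% with protein-coding genes only, against 52.3%. Of 44 recomputed values, these 11 moved beyond 1.5 times for a count or beyond the 95% interval for a share or median, and the other 33 did not. No paired analysis was possible because the result comes from 1 library and from no test. The unknown depth limits which regions could be listed as neighbours.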

Other observations

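Near copies were common among the promoter windows that clustered narrow regions touched. Of these 10 windows, 5 (of Gm3115, Sprr2a2, Rex2, Gm15319 and Gm21119) had a near copy at another gene, against 5 of 32 windows touched by isolated narrow regions (15.6%) and 3429 of all 31396 autosomal windows (10.9%). Among all windows of the chromosome 8 stretch, covered or not, 3 of 22 had a near copy (13.6%). The 10 windows include 2 that are copies of each other, so they are not 10 independent sequences, and the counts were looked at after the sequences had been seen.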
